A study of Mus musculus with 6 samples.

Results

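The autophagy and mitophagy genes examined here were Ulk1, Becn1, Map1lc3a, Map1lc3b, Gabarapl1, Sqstm1, Bnip3, Bnip3l and Tfeb. They were found by gene symbol, through the Ensembl identifier, in the count table. All 9 were among its 55416 genes, and all 9 were among the 15623 genes with enough counts to be tested.

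Transcripts were counted in the tibialis anterior (TA), a fast muscle of the lower leg, from WT and SELENOW KO mice that were 24 months old, with 3 libraries per genotype. Every mouse had aged naturally, the labels name no other treatment, and the methods give aged male mice on the C57BL/6N background. In the KO mice, exon 4 of Selenow was removed in the whole animal with a pair of guide RNAs, so the loss was neither limited to muscle nor to old age. Young mice were not analysed here, and the sources used here do not say whether the KO mice descend from a single founder.

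Autophagy wraps parts of the cytoplasm in a double membrane, the autophagosome, and delivers them to the lysosome for breakdown. Mitophagy is the same route with mitochondria as cargo. In skeletal muscle it is, beside the ubiquitin-proteasome system, a main route of protein and organelle turnover. ULK1 starts the process and the Beclin 1 lipid kinase complex marks the membrane. Proteins of the ATG8 family (the LC3 and GABARAP proteins) are then attached to it, cargo receptors such as p62 and BNIP3 tie cargo to them, and the transcription factor TFEB switches on many genes of autophagy and of the lysosome. Much of this control acts on proteins, by phosphorylation and lipid attachment, which RNA counts do not measure.

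The WT libraries held 25351976 to 29111213 counts each and the KO libraries 27345022 to 27815342. Mitochondrially encoded transcripts made up 29.1% to 37.3% of these counts in WT libraries (mean 32.1%) and 35.4% to 40.3% in KO libraries (mean 38%). The ranges overlapped only through WT replicate 1, at 37.3%. This share holds genes of the mitochondrial chromosome alone. Very abundant predicted genes such as Gm10925 (mean 35100 CPM in WT, 48200 in KO) and Gm28437 (23600 and 29600 CPM) are not in it. The fit without mitochondrially encoded genes kept them. Whether their reads came from mitochondrial transcripts was not tested. Selenow itself was at 268, 245 and 219 CPM in the 3 WT libraries and 193, 212 and 210 CPM in the 3 KO libraries, with a log2 fold change of -0.25 (SE 0.14; adjusted p = 0.604, edgeR). Each KO library was below each WT library, and counts over the whole gene do not show the loss of a single exon. The muscle label held, since 8 fast fibre markers together took 87100 to 114000 CPM of each WT library and 96200 to 111000 CPM of each KO library. CPM are counts relative to the library total, scaled by TMM factors. In bulk RNA, fewer cells of a type and less RNA per cell cannot be told apart.

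To see whether transcripts of the autophagy machinery differed between aged WT and KO muscle, each gene was compared with the quasi-likelihood test of edgeR. A gene was called, at the thresholds of the study, at an unadjusted p under 0.05 with a fold change over 1.5 or under 0.7. None of the 9 genes was called, and 836 of all 15623 genes were, which is 5.35%. At an unadjusted p under 0.05 alone there was 1 of 9, Map1lc3a, lower in the KO. That share, 11.1%, was near the 9.89% of all genes (1545). No gene of the whole table passed an adjusted p under 0.05 in edgeR (0%), while DESeq2 gave 45, none of them among the 9, with 1290 at an unadjusted p under 0.05. The WT and KO libraries overlapped for all 9 genes, and they were apart for 15.4% of all genes tested. The fitted difference was lower in KO for 7 of the 9 and higher for 2. Their median log2 fold change was -0.12, and 7 of the 9 lay within 0.2 of no change. The median over all genes was -0.0042, with 50.6% of genes fitted lower.

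**Figure D1:**
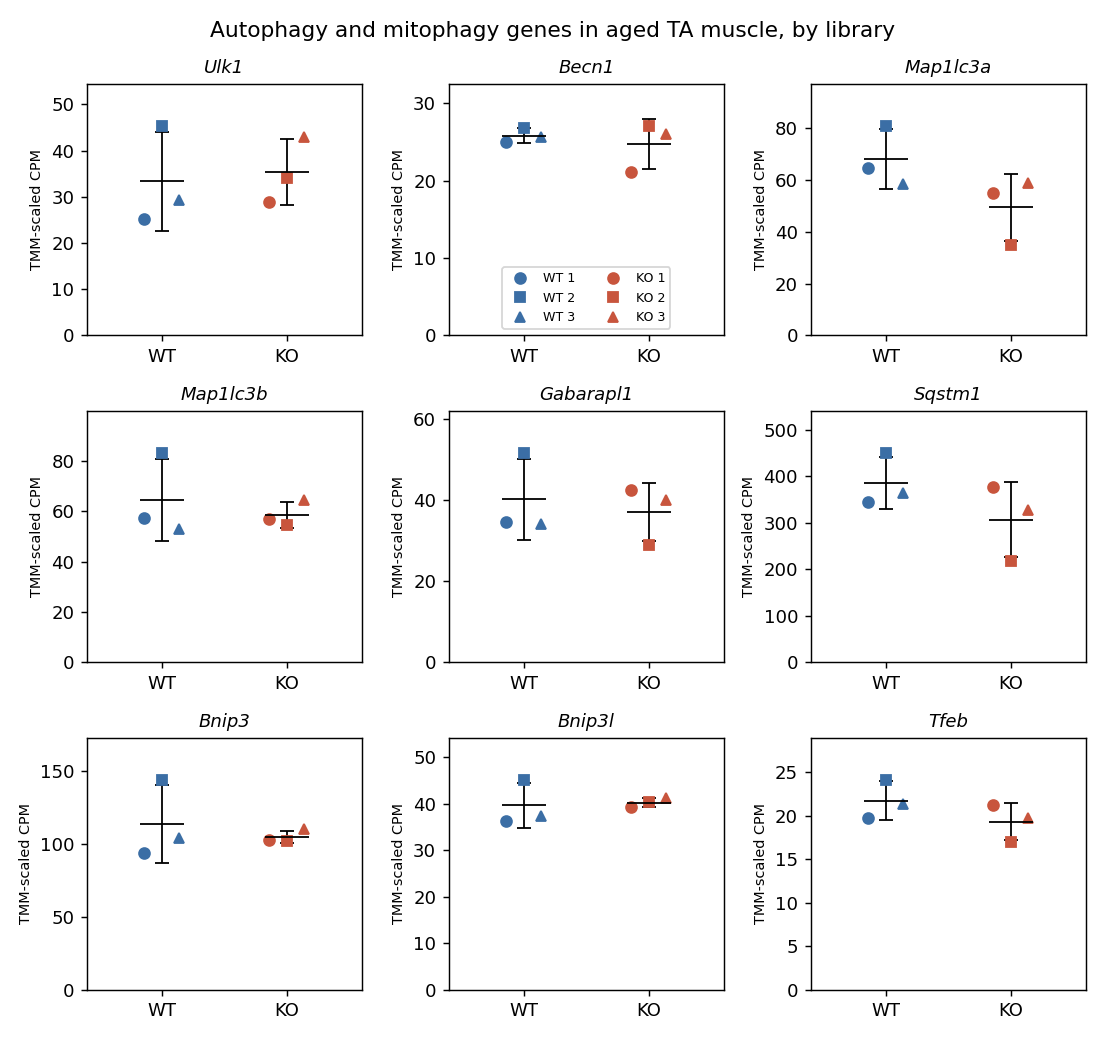
Level of the 9 genes in TMM-scaled CPM (vertical axis, from 0) in each WT and KO library, with a symbol for each replicate number; long bars give the mean and whiskers the SD (n = 3 each). WT and KO points overlap in every panel, WT replicate 2 is the highest point for 8 of 9 genes, and KO replicate 2 is the lowest for 4 of 9.

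Ulk1 encodes the protein kinase that starts autophagosome formation under the control of mTORC1 and AMPK. It lies at chr5:110932354-110957963 on the minus strand. Its level was 25.1, 45.4 and 29.4 CPM in WT replicates 1 to 3, and KO replicates 1 to 3 held 28.9, 34.0 and 43.0 CPM. The KO values lay within the WT range, with WT replicate 2 at the top and WT replicate 1 at the bottom. The log2 fold change was 0.082 (SE 0.23), the widest error of the 9 genes, and its 95% interval ran from -0.45 to 0.61. Leaving out WT replicate 2 moved it to 0.38 (adjusted p = 0.558, edgeR), and leaving out WT replicate 1 moved it to -0.084.

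Becn1, at chr11:101176778-101193112 on the minus strand, encodes Beclin 1, a subunit of the class III phosphatidylinositol 3-kinase complex. WT libraries held 25, 26.8 and 25.6 CPM, and KO libraries held 21.1, 27.1 and 26.0 CPM. Among the 9, it was the only gene whose highest value was in a KO library, replicate 2, and KO replicate 1 was the lowest. Its log2 fold change was -0.06 (SE 0.13), with a 95% interval of -0.34 to 0.22.

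Of the ATG8 family, Map1lc3a encodes LC3A, a protein that is lipidated and inserted into the autophagosome membrane. It lies at chr2:155118217-155119993 on the plus strand. Its level was 64.5, 81.0 and 58.5 CPM in WT and 55.1, 34.7 and 58.7 CPM in KO replicates 1, 2 and 3. WT replicate 2 was the highest and KO replicate 2 by far the lowest, and KO replicate 3 reached just above WT replicate 3. WT averaged 68.0 ± 11.6 CPM and KO 49.5 ± 12.9 CPM (SD, n = 3 each). The KO was at 0.728-fold of WT, or -0.46 (SE 0.20) on the log2 scale. The 95% interval was -0.90 to -0.013, with an unadjusted p of 0.0447 and an adjusted p of 0.496 in edgeR. The exact permutation test on the 6 values gave p = 0.2, two-sided, where 0.1 is the smallest p that 3 against 3 libraries allow. Without KO replicate 2 the log2 fold change was -0.25 (adjusted p = 0.928), and without WT replicate 2 it was -0.31 (adjusted p = 0.678). Without WT replicate 3, KO replicate 1 or KO replicate 3 it was -0.56, -0.54 and -0.60, and the gene was then called.

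Map1lc3b, at chr8:122317100-122325499 on the plus strand, encodes LC3B, the form most often used as a marker of autophagosomes. WT libraries were at 57.3, 83.1 and 52.8 CPM, and KO libraries at 56.8, 54.3 and 64.3 CPM. The WT group spanned all 3 KO values, because WT replicate 2 was high. On the log2 scale the KO differed by -0.14 (SE 0.17; 95% interval -0.52 to 0.24), and without WT replicate 2 it was 0.09. Gabarapl1, at chr6:129510123-129519309 on the plus strand, encodes a member of the GABARAP branch, which acts later in autophagosome closure and in fusion. It was at 34.6, 51.6 and 34.1 CPM in WT and at 42.4, 28.9 and 40.0 CPM in KO. Here the replicates numbered 2 were the highest and the lowest of the 6, and the other 4 libraries lay between them. The log2 fold change was -0.11 (SE 0.19; 95% interval -0.54 to 0.32), and without WT replicate 2 it was 0.12.

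Sqstm1 encodes p62, which binds ubiquitinated proteins and LC3 and is itself broken down with its cargo. The gene lies at chr11:50090193-50101654 on the minus strand. It was at 346, 451 and 364 CPM in WT and at 377, 218 and 327 CPM in KO replicates 1, 2 and 3. KO replicate 1 was above 2 of the WT libraries, and KO replicate 2 was far under the other 5. The fitted log2 difference was -0.33 (SE 0.20; 95% interval -0.77 to 0.11; adjusted p = 0.627, edgeR). Without KO replicate 2 it was -0.13 (adjusted p = 0.99), and without KO replicate 1 it was -0.50 (adjusted p = 0.436).

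Bnip3 and Bnip3l encode receptors in the outer mitochondrial membrane that bind LC3 and GABARAP proteins and bring mitochondria to the autophagosome. Both are known as targets of hypoxia-inducible and FOXO factors in other settings. Bnip3, at chr7:138492565-138511248 on the minus strand, was at 93.5, 144 and 104 CPM in WT and at 103, 102 and 110 CPM in KO. The KO libraries lay close together within the WT range, and WT replicate 2 stood above them all. KO minus WT was -0.12 on the log2 scale (SE 0.17; 95% interval -0.48 to 0.25), and it was 0.094 without WT replicate 2. Bnip3l, at chr14:67222688-67246326 on the minus strand, was at 36.3, 45.1 and 37.4 CPM in WT and at 39.2, 40.3 and 41.2 CPM in KO. Again the KO values lay within the WT range. Bnip3l varied least of the 9, with a ratio of 1.24 between its highest and lowest library, and its log2 fold change was 0.023 (SE 0.13; 95% interval -0.26 to 0.30).

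Tfeb, at chr17:48047955-48103344 on the plus strand, encodes the transcription factor that mTORC1 holds in the cytoplasm of fed cells. It was at 19.7, 24.1 and 21.3 CPM in WT and at 21.2, 17 and 19.7 CPM in KO. WT replicate 2 was the highest, KO replicate 2 the lowest, and the other 4 values lay close together. The log2 fold change was -0.17 (SE 0.13; 95% interval -0.46 to 0.12; adjusted p = 0.706, edgeR).

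The libraries at the ends of these ranges were mostly the same. WT replicate 2 was the highest of the 6 for 8 of the 9 genes, against 16.0% of all genes tested and 17 of 70 other autophagy genes. KO replicate 2 was the lowest for 4 of the 9, Map1lc3a, Gabarapl1, Sqstm1 and Tfeb, against 19.7% of all genes. Relative to the WT mean, the median log2 level of the 9 was -0.14, 0.27 and -0.11 in WT replicates 1 to 3. In KO replicates 1 to 3 it was -0.11, -0.22 and 0.012. WT replicate 1 thus lay between KO replicates 1 and 2. Without WT replicate 2 the median log2 fold change of the 9 was 0.09, with 4 of 9 lower. Without WT replicate 1 it was -0.22 and without WT replicate 3 it was -0.19, each with 9 of 9 lower.

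Markers of other cells differed between the libraries as well. The summed level of 5 red blood cell markers was 174 to 293 CPM in WT, with replicate 2 the highest, and 142 to 165 CPM in KO, with replicate 2 again the highest. All 5 were fitted lower in KO, 3 of them with an unadjusted p under 0.05. The 7 leukocyte markers summed to 12.2 to 50.8 CPM in WT and 10.7 to 20.4 CPM in KO, and the 4 slow fibre markers to 14 to 40.2 and 15.8 to 24.3 CPM, with WT replicate 2 the lowest WT library for both. KO replicate 2, at 14.6 CPM, was in the middle of the KO libraries for leukocyte markers. Of the 6 leukocyte markers tested 4 were fitted lower, with Lyz2 the largest part of the sum in each library, while the T cell marker Cd3e was called higher in KO, with a log2 fold change of 1.16. The 8 fast fibre markers summed to 114000 CPM in WT replicate 2, the highest of all libraries, and none had an unadjusted p under 0.05. For fibroblasts 4 markers summed to 57.5 to 136 CPM in WT and 50.4 to 87.4 in KO, for endothelial cells 4 summed to 49.0 to 81.4 and 74.2 to 87.7, and for Schwann cells 4 summed to 3.70 to 5.88 and 5.67 to 9.46. All 4 endothelial markers were fitted higher in KO, 1 of them, Cdh5 at 0.50, with an unadjusted p under 0.05. All 4 fibroblast markers and 3 of the 4 slow fibre markers were fitted lower. The 3 Schwann cell markers tested were fitted higher. No fibroblast, slow fibre or Schwann cell marker had an unadjusted p under 0.05. The 4 adipocyte markers stayed under 1 CPM in every library, as did the 4 keratinocyte markers, 3 of which were at 0 in all. The part of these cells in the spread of the autophagy genes was not tested.

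**Figure D2:**
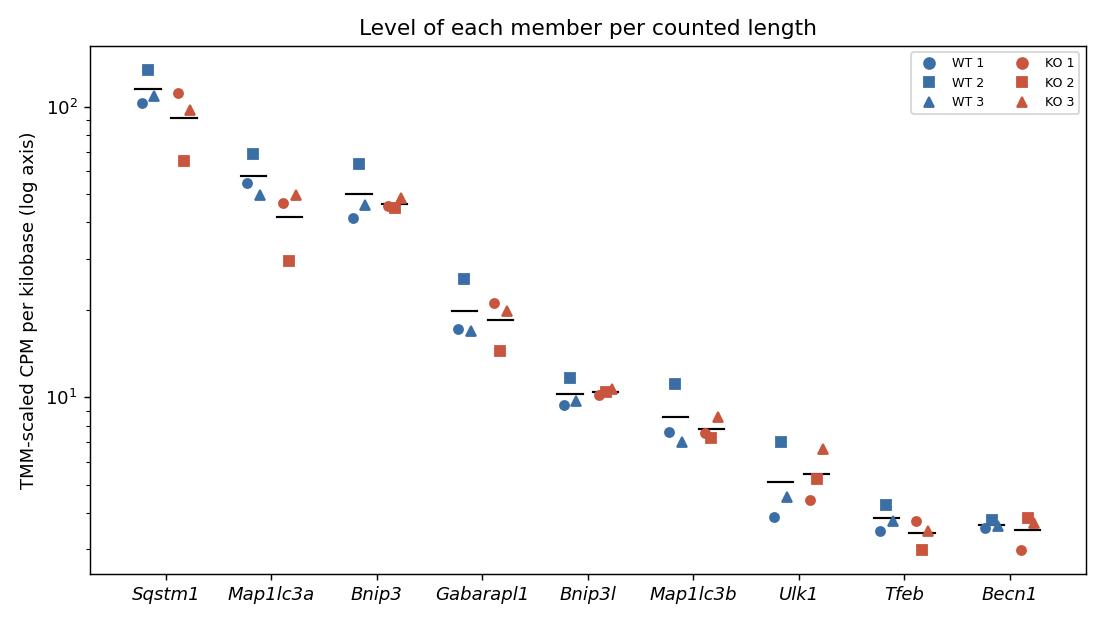
Level of each of the 9 genes in TMM-scaled CPM per kilobase of counted length (vertical log axis), in order of the WT mean; points are libraries and bars are group means (n = 3 each). Sqstm1 is the most abundant at a mean of 115 in WT, and Tfeb and Becn1 are the least at 3.83 and 3.65, with nearly the same order in KO.

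To compare levels between genes, CPM was divided by the length in kilobases over which reads were counted. In WT, Sqstm1 came first at 115 ± 16.7 CPM per kilobase (SD, n = 3), above the level of 98.4% of all tested genes. Map1lc3a followed at 57.6 ± 9.84 and Bnip3 at 50.3 ± 11.8, and the ranges of these 2 overlapped. Gabarapl1 was at 19.9 ± 4.95, apart from its neighbours in the order.

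Bnip3l at 10.3 ± 1.25 and Map1lc3b at 8.57 ± 2.17 CPM per kilobase overlapped as well, and so did Ulk1 at 5.13 ± 1.65, Tfeb at 3.83 ± 0.395 and Becn1 at 3.65 ± 0.131, each with the next. By this measure the ATG8 and receptor genes were all above the genes of the kinase, the lipid kinase subunit and the transcription factor. The order depends on the counted lengths, from 1181 bases for Map1lc3a to 7065 for Becn1 and 7517 for Map1lc3b. Whether the transcripts in this muscle had these lengths was not tested. In KO, Bnip3 (46.4 ± 1.84) came before Map1lc3a (41.9 ± 10.9) and Becn1 (3.50 ± 0.452) before Tfeb (3.40 ± 0.379), and in each of these pairs the ranges overlapped. Sqstm1 was at 91.6 ± 24.2 CPM per kilobase in KO, again without overlap with the next gene. The genes at the other places kept their order.

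Because a ratio of 2 genes within a library does not depend on scaling between libraries, 8 ratios of counts per length were also compared, each with an exact two-sided permutation test. The ratio of Map1lc3a to Map1lc3b was 7.17, 6.20 and 7.05 in WT and 6.18, 4.07 and 5.81 in KO replicates 1, 2 and 3. Each KO library was below each WT library, although KO replicate 1 and WT replicate 2 nearly met. The log2 ratio differed by -0.37, with an exact p = 0.1, the smallest possible, and an adjusted p of 0.6 over the 8 ratios. Without KO replicate 2 the difference was -0.18.

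The other 7 ratios overlapped between genotypes. Tfeb relative to Tfe3, its close relative, was 7.86, 10.9 and 9.96 in WT and 8.34, 7.47 and 7.07 in KO, a log2 difference of -0.32 (exact p = 0.2). Sqstm1 relative to Nbr1, another ubiquitin-binding receptor, was 13.4, 13.8 and 12.3 in WT and 12.5, 8.46 and 14 in KO, so KO replicate 2 alone was low. Without that library the log2 difference of -0.21 was 0.0039. Gabarapl1 relative to Gabarapl2 differed by 0.25 (exact p = 0.3) and Bnip3 relative to Bnip3l by -0.12 (exact p = 0.3). The remaining differences were -0.098 for Becn1 to Pik3c3, 0.011 for Gabarapl1 to Map1lc3b and 0.0059 for Ulk1 to Ulk2, with exact p values of 0.6, 0.9 and 1.

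**Figure D3:**
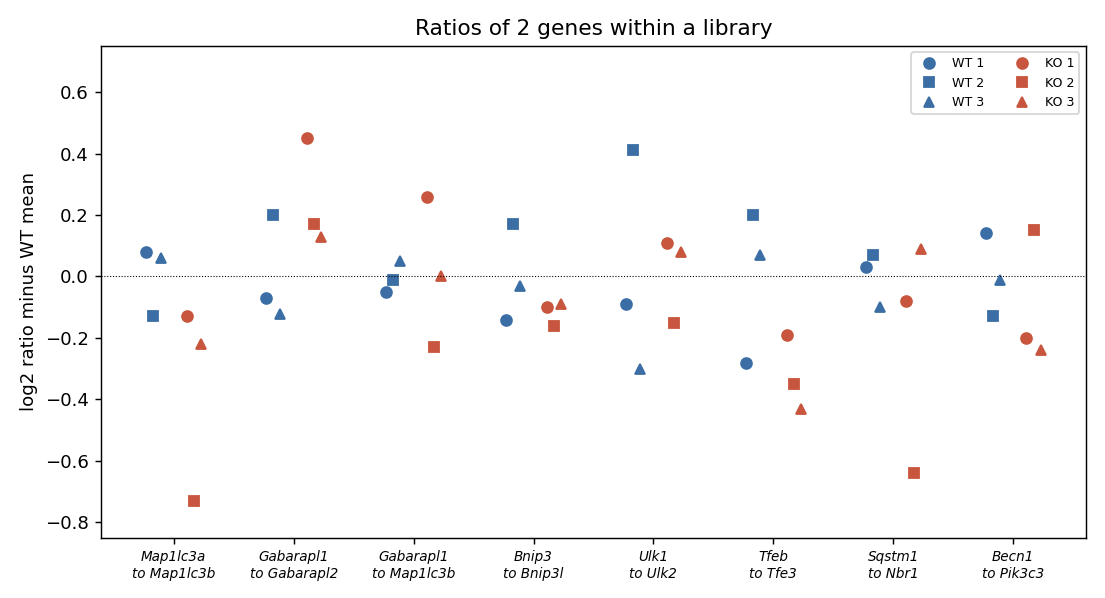
The 8 within-library log2 ratios of counts per length, minus the WT mean (vertical axis), for each WT and KO library. For Map1lc3a to Map1lc3b the KO points lie below the WT points, with a log2 difference of -0.37, and for the other 7 ratios the points of the genotypes overlap.

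The rest of the pathway was followed with a list of 71 other autophagy genes in 9 roles, of which 70 were tested. The count of Atg9b was 0 to 8 per library, too few for a test. Of the 70, 35 were fitted higher and 35 lower in KO, with a median log2 fold change of 0.0036, and none was called. Scaled by total counts alone, 64 of the 70 were fitted lower, with a median of -0.25, the same as that of all genes. With TMM, an unadjusted p under 0.05 was found for 9 (12.9%, against 9.89% of all genes), 5 higher and 4 lower. Without KO replicate 2 that count was 1 of 70, against 7.3% of all genes, and with total counts alone it was 16, all of them lower. The libraries of the genotypes were apart for 10 (14.3%, against 15.4% of all genes).

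Zkscan3, a zinc finger protein described as a repressor of autophagy and lysosome genes, had the lowest p of the list. It was at 26.0, 29.4 and 26.9 CPM in WT and at 36.7, 41.7 and 38.5 CPM in KO, with every KO library above every WT library. Its log2 fold change was 0.50 (SE 0.12; adjusted p = 0.277, edgeR). It was between 0.45 and 0.56 when each library was left out in turn, and 0.25 when libraries were scaled by their totals alone. In the same role, Mcoln1, the lysosomal calcium channel that acts upstream of TFEB, had a log2 fold change of 0.36 (SE 0.14; adjusted p = 0.44). All 9 genes of the transcription role beside Tfeb were fitted higher, with a median of 0.20, while Tfeb was fitted lower. They include Zkscan3 and Mcoln1, the 2 with an unadjusted p under 0.05 in edgeR, and Tfe3, Mitf, Flcn and Rragd. Since a described repressor is among them, the shared direction was not read as a change of activity. Scaled by total counts alone, 2 of these 9 were higher and 7 lower, with a median of -0.065 against -0.25 over all genes. When each library was left out in turn, 7 to 9 of them were higher.

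The other genes at this level were spread over the roles. Atg2a, a lipid transfer protein of the growing membrane, had a log2 fold change of 0.44 (SE 0.15; adjusted p = 0.383). Stx17, the SNARE protein of fusion with the lysosome, was at 0.38 (SE 0.14; adjusted p = 0.423), and Calcoco1, a receptor for the endoplasmic reticulum, at 0.34 (SE 0.14; adjusted p = 0.476). In all 3 the KO libraries were above the WT libraries. Lower in KO were Atg4b, the protease that prepares ATG8 proteins for lipidation, at -0.37 (SE 0.14; adjusted p = 0.438), and Atg101, a subunit of the ULK1 complex, at -0.36 (SE 0.14; adjusted p = 0.446). The mitochondrial phosphatase gene Pgam5 was at -0.29 (SE 0.13; adjusted p = 0.494), and the libraries of these 3 genes were apart. Gabarapl2, another ATG8 protein, was at -0.34 (SE 0.15; adjusted p = 0.496), with overlapping libraries. Scaled by total counts alone, Atg2a was at 0.19, Stx17 at 0.13, Mcoln1 at 0.11 and Calcoco1 at 0.086, and none of the 5 higher genes, Zkscan3 included, had an unadjusted p under 0.05 any more. The 4 lower genes moved the other way, to -0.62 for Atg4b, -0.61 for Atg101, -0.58 for Gabarapl2 and -0.54 for Pgam5, and were then called. Outside the named set, the libraries of Ambra1 (0.26, higher) and Vmp1 (-0.21, lower) were also apart, with unadjusted p values of 0.0739 and 0.107, and they are named after their values were seen.

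By role, in the TMM fit, 8 of 11 conjugation genes and 7 of 10 membrane supply genes were fitted lower, as were 4 of 7 genes of the lipid kinase complex, 6 of 10 mitophagy genes and both other ATG8 genes. Of the initiation genes 3 of 4 were fitted higher, and 5 of 9 cargo receptor genes and 5 of 8 fusion genes were too. These directions turned in part when a library was left out. Without WT replicate 1, 0 of 4 initiation genes were higher, and without KO replicate 3, 1 of 4. Membrane supply genes were lower in 4 of 10 without WT replicate 2, and the lipid kinase complex ran from 2 of 7 lower without WT replicate 3 to 6 of 7 without WT replicate 1. For cargo receptors 3 to 6 of 9 were higher, for mitophagy 5 to 8 of 10 were lower, and for conjugation 6 to 8 of 11. No role had more than 2 genes with an unadjusted p under 0.05. The most abundant per length in each role did not reach that level. They included Pink1, the kinase that marks damaged mitochondria, at 86.8 ± 16.6 CPM per kilobase in WT and a log2 fold change of 0.089 (SE 0.17). Retreg1, a receptor for the endoplasmic reticulum, was at 62.4 ± 11.1 and -0.34 (SE 0.17; adjusted p = 0.551, edgeR), and the small GTPase gene Rab7 at 57.1 ± 10.1 and -0.15 (SE 0.16). For Gabarap, Rragd, Wipi1, Atg4a, Ulk2 and Nrbf2 the log2 fold changes were -0.027, 0.092, -0.041, 0.034, 0.12 and -0.038.

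**Figure D4:**
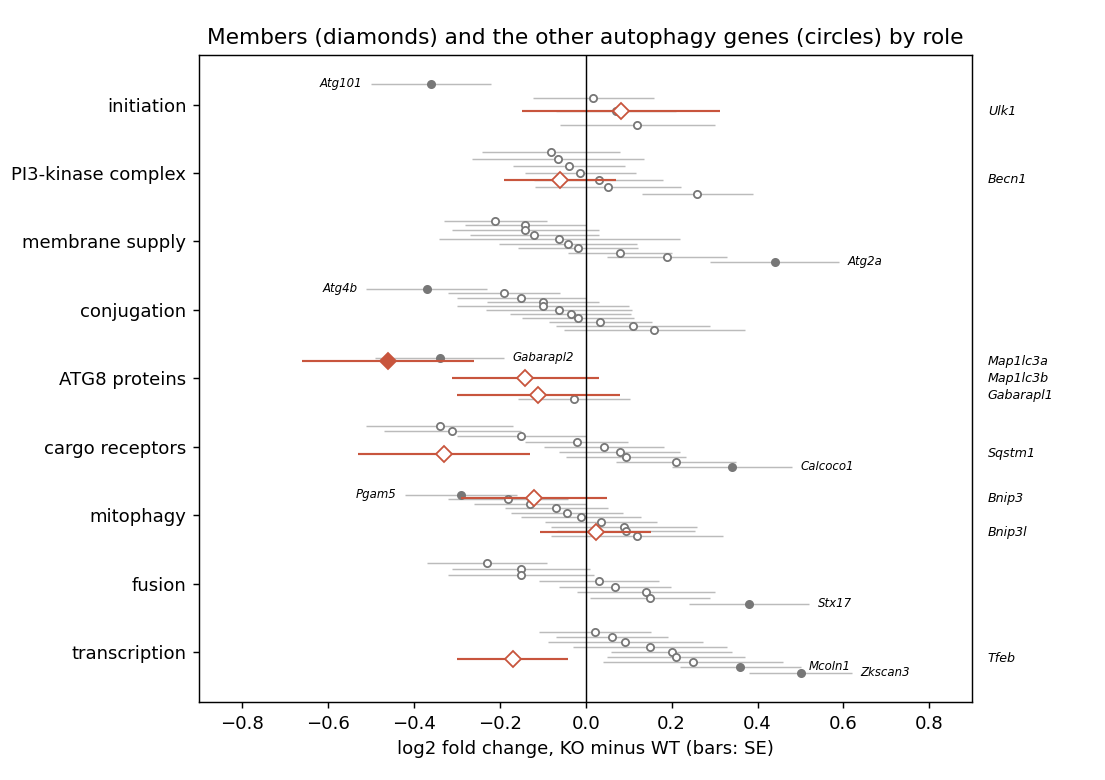
Log2 fold change, KO minus WT (horizontal axis; bars are SE; n = 3 each), of the 9 genes (diamonds, named at the right) and the 70 other autophagy genes (circles) by role; filled symbols have an unadjusted p under 0.05. Map1lc3a is the filled diamond at -0.46, and the filled circles run from -0.37 (Atg4b) to 0.50 (Zkscan3).

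Scaling between libraries set the sign for part of the 9 genes. TMM factors were 0.893 to 1.2, and with total counts alone the median of all genes moved by -0.25. All 9 genes were then fitted lower, with a median of -0.37, and Ulk1 and Bnip3l changed sign to -0.17 and -0.23. Relative to the median of all genes, 7 of the 9 were lower under both scalings. Map1lc3a (-0.70, adjusted p = 0.136) and Sqstm1 (-0.58, adjusted p = 0.189) were called under total counts, and Tfeb (-0.42, adjusted p = 0.213) had an unadjusted p under 0.05 in edgeR. With DESeq2 size factors, without the mitochondrially encoded genes, with other filters or with DESeq2's own test, 7 of 9 were lower and the median lay between -0.13 and -0.11.

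**Figure D5:**
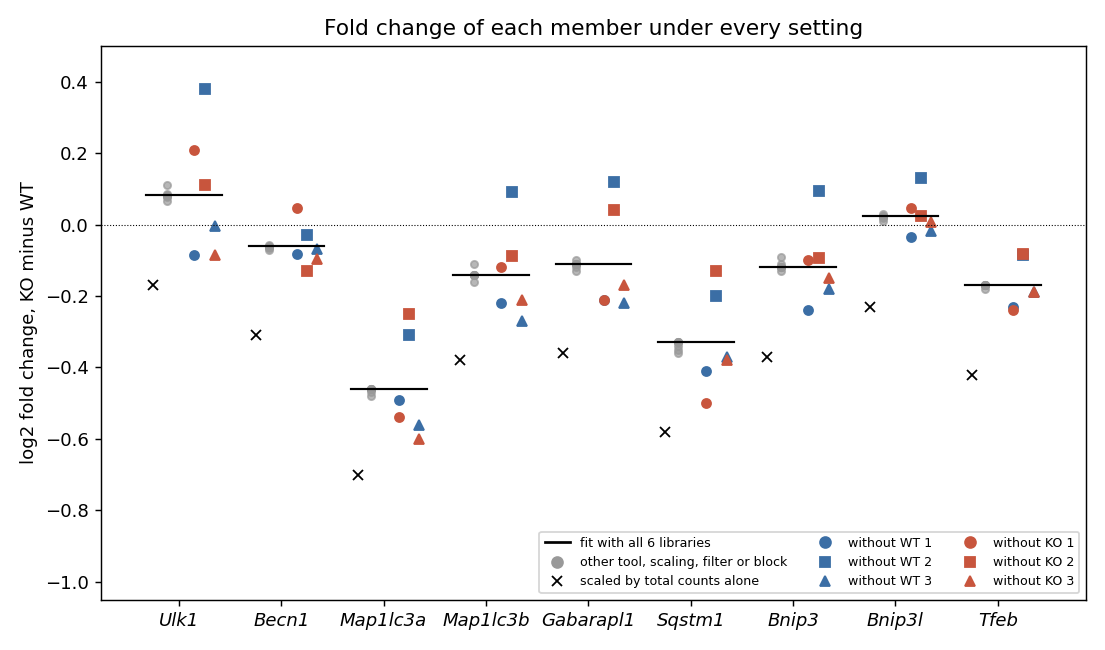
Log2 fold change, KO minus WT (vertical axis), of each of the 9 genes with all 6 libraries (bars), under other tools, scalings, filters or the replicate block (circles), with total counts alone (crosses) and with each library left out (coloured symbols). Map1lc3a lies between -0.70 and -0.25 throughout, and leaving out WT replicate 2 puts Map1lc3b, Gabarapl1 and Bnip3 above 0.

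By the root mean square difference of centred log2 CPM over the 6 libraries, the genes whose pattern was closest were sought among 12461 tested genes for the 3 members that varied most. Closest to Map1lc3a (SD 0.401 over the 6 libraries) were Tmem120a at 0.093, Bag3, a co-chaperone, at 0.102 and Gclm, a subunit of the first enzyme of glutathione synthesis, at 0.103. Closest to Sqstm1 (SD 0.349) were Mvp, the major vault protein, at 0.0468, the pseudogene Sms-ps at 0.0578 and Sms, spermine synthase, at 0.0642. Closest to Ulk1 (SD 0.34) were Plekhb1 at 0.0692, Hmgn5 at 0.0694 and Fbxo31 at 0.0821. These are descriptions over 6 libraries that share their scaling.

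Reads of several of the 9 genes could have been counted elsewhere, or reads of other genes counted in them. Both entries with the symbol Ptp4a1 were at nearly the same level, 71.5 and 71.6 CPM on average in WT. Whether shared reads were counted for each gene that holds them was not tested. Counting by strand is not given in the sources used here, so a gene and its overlapping partner on the other strand cannot be told apart. The antisense gene Gm45507 overlaps Bnip3 and held 10519 counts over the 6 libraries, against 18093 for Bnip3, and its log2 fold change was also -0.12. Cntd1 overlaps Becn1, with 2158 counts against 4138, and Mrnip overlaps Sqstm1, with 584 against 57520. The log2 fold change was 0.03 for Cntd1 against -0.06 for Becn1, and -0.21 for Mrnip against -0.33 for Sqstm1. Map1lc3b overlaps the protein-coding gene Gm20388 on the same strand, with 4399 counts against 10148 and the same log2 fold change of -0.14. Zcchc14 overlaps Map1lc3b on the other strand, with 1213 counts and a log2 fold change of 0.25. Gabarapl1 overlaps 1700101I11Rik, with 1489 counts against 6377 and a log2 fold change of -0.071 against -0.11. It also overlaps Gm44243 on the same strand, with 142 counts and a log2 fold change of 0.47. No overlapping gene was found for Map1lc3a, Ulk1, Bnip3l and Tfeb. Overlaps were looked up in GENCODE M21, a GRCm38 annotation that holds 52135 of the 55416 genes counted. Genes outside it were not checked. Stretches of 50 bases in transcripts of the 9 genes were also searched, on both strands, in transcripts of other genes of that annotation. Shared were 47.2% in Bnip3, 36.8% in Becn1, 23.1% in Gabarapl1, 20.8% in Bnip3l and 15.5% in Sqstm1. For Becn1, Gabarapl1 and Sqstm1 all or nearly all of this share was with Cntd1, 1700101I11Rik and Mrnip. It is thus the same overlap and not a separate one. For Map1lc3a and Tfeb this share was 0%, for Ulk1 0.0445% and for Map1lc3b 6.01%. Bnip3l shares its stretches with the pseudogene Bnip3l-ps, which held 854 counts against 6544. Bnip3 shares 33.9% of its stretches with AC160336.1, which held 632 counts. In GENCODE M21, Map1lc3a and Tfeb thus had neither an overlapping gene nor a shared stretch, and Ulk1 had almost none. The values of Bnip3, Becn1, Map1lc3b, Gabarapl1 and Bnip3l are uncertain for this reason. So is that of Sqstm1, although its overlapping gene held few counts beside its own.

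Promoters of 300 bases (most of each before the RefSeq start, build GRCm38.p6) were found for 6 of the 9 genes, with 8 starts in all. They were searched on both strands for CACGTG (the E-box core bound by TFEB and TFE3), TCACGTGA (the same with its flanks in the CLEAR element) and GTAAACA (a FOXO element). Also searched were TGACNNNGC (the antioxidant response element core) and ACGTG (the only form of the hypoxia response element core searched, held by every CACGTG). Of 32851 mouse promoters of this length, 7.15%, 0.974%, 3.65%, 12.4% and 19.6% hold these sequences, in the order given. Only 2 of the 8 promoters held any, and both are shown because these genes carried the matches, which are in capitals, 5′ to 3′ on the strand of the gene. In Bnip3, a gene of the minus strand at chr7:138909457-138909756, CACGTG begins at base -108, counted from the start base as 0, and ACGTG matches within it on each strand. In Map1lc3b, on the plus strand at chr8:121590188-121590487, TGACNNNGC begins at base 4, just after the start.
Bnip3: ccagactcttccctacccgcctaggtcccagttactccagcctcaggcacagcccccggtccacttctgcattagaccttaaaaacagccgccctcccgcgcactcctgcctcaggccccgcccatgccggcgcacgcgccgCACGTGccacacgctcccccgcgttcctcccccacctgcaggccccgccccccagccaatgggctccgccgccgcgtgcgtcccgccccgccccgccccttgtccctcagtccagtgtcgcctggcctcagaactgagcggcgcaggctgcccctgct
Map1lc3b: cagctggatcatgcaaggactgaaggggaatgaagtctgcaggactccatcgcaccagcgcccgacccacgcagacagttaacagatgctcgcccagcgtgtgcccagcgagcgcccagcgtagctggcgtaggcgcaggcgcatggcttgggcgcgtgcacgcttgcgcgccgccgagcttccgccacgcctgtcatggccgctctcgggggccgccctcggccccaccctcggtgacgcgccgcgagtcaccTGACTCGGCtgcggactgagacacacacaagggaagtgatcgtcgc
The promoters of Ulk1, Gabarapl1, Sqstm1 and Tfeb held none of these letters in this window. The 2 genes with a match had log2 fold changes of -0.12 and -0.14, within the range of the other members. A match is a description of the sequence and was not tied to binding or to the measured levels. These positions are in GRCm38.p6 and cannot be set beside the gene positions above, which the submitters' processing notes place in GRCm39.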

How the data were processed

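Gene counts of 6 TA muscle libraries were used. The deposited counts are raw and were not normalized. Per the methods, the authors used Hisat2 (2.1.0) for alignment of paired-end reads and featureCounts (1.6) for counting by gene. Libraries were made with a NEBNext Ultra RNA kit; the handling of strand and of reads with several hits is not given in the sources used here. The methods name GRCm38, the submitters' processing notes name GRCm39, and 1546 of 52135 genes have the start and end they have in GENCODE M21, a GRCm38 annotation. Gene positions were therefore given as in the deposited table. Symbols matched 52083 of 55416 identifiers.

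Genes were kept with filterByExpr, scaled by TMM and compared by genotype in edgeR (version 4.0.16, R 4.3.3) with a robust quasi-likelihood fit and Benjamini-Hochberg adjustment over 15623 genes. DESeq2 (version 1.42.0; the study used version 1.32.0), other scalings, filters, a replicate block and leaving out each library were alternatives. A log2 fold change is the coefficient of edgeR's fit, and its SE comes from the test. A WT column without a number was read as WT replicate 1, since the other WT columns are numbered 2 and 3. Replicates differed by far more than sampling noise (chi-square per degree of freedom 19.3 to 70.5). The labels do not say whether each library came from its own mouse. The paper's methods give 3 RNA samples of muscle per group, and the legend of its RNA-seq figure gives 3 mice. The p-values were therefore read as measuring the spread between mice, which can include technical spread. Levels per length used the counted length in the table. The cell type markers, the roles, the rule for named genes (all 9; other autophagy genes with an unadjusted p under 0.05 or the most abundant per length in a role; for the 3 most variable members the 3 most alike genes, without Gm and Rik symbols) and the 9 genes themselves were chosen with earlier results of these data known. In simulated data with 200 changed genes of 15623, edgeR recovered 82% and DESeq2 85% at an adjusted p under 0.05, with 19 and 36 false calls. The changed genes there had absolute log2 fold changes of 1 or more, above any fitted for the 9 or the 70 other autophagy genes. Recovery of differences as small as theirs was not simulated. The counts behind the 9 genes were 13652 to 30581 per library.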

Additional observations from a re-analysis of the deposited data

How the results depend on the processing

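Alternatives were DESeq2, its size factors in edgeR, total counts alone, no mitochondrially encoded genes, no filter, a minimum of 10 counts per library, robust estimation off, a replicate block, other fold thresholds and leaving out each library. With total counts alone, 1792 genes were called and 55 had an adjusted p under 0.05, 2 of the 9 genes and 6 of the 70 were called, and 4.46% of calls were higher in KO against 41.3% with TMM. Map1lc3a was then at -0.70 and Sqstm1 at -0.58 (called), and Ulk1 at -0.17 and Bnip3l at -0.23 (changed sign). Without a filter 1780 genes were called and 363 had an adjusted p under 0.05, a count that was 45 with DESeq2, 4 with at least 10 counts in every library and 0 in the fit with TMM and all libraries. With an absolute log2 fold change over 1, 315 genes were called. Without a fold threshold 1 of the 9 and 9 of the 70 had an unadjusted p under 0.05.

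The replicate numbers are shared by WT and KO, but correlations of same-numbered libraries were 0.0909, 0.042 and -0.0978, so the numbers were not taken as pairs. With the number as a replicate block, 890 genes were called, 1 had an adjusted p under 0.05, and none of the 9 or the 70 was called. Map1lc3a was at -0.48 (adjusted p = 0.576, edgeR) under the block, with an unadjusted p above 0.05, and no member changed sign. Not every library correlated best with its own number.

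Leaving out each library in turn gave 814 to 1072 called genes, 0 to 242 with an adjusted p under 0.05 (242 without KO replicate 2), and 0 to 1 of the 9 called. The log2 fold change ranged from -0.60 to -0.25 for Map1lc3a, -0.084 to 0.38 for Ulk1, -0.036 to 0.13 for Bnip3l, -0.27 to 0.09 for Map1lc3b, -0.22 to 0.12 for Gabarapl1, -0.24 to 0.094 for Bnip3 and -0.13 to 0.047 for Becn1. The other 2 members, Sqstm1 (-0.50 to -0.13) and Tfeb (-0.24 to -0.083), kept their sign. Log2 ratio differences ranged from -0.11 to 0.13 for Gabarapl1 to Map1lc3b, -0.15 to 0.21 for Ulk1 to Ulk2 and -0.36 to 0.0039 for Sqstm1 to Nbr1, and the other 5 ratios kept their sign. The cause of these shifts was not tested. With 3 libraries per genotype, the 95% intervals given for each gene show the range of differences these data allow under TMM scaling. They leave out the shift between scalings, which put the median of all genes at -0.25 with total counts alone. Protein, lipidation and flux of autophagy were not measured here.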
